A study of Drosophila melanogaster with 36 samples.

Results

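The genes examined here are the odorant (Or), gustatory (Gr) and ionotropic (Ir) receptor genes of Drosophila melanogaster, taken by symbol as every gene whose name begins with Or, Gr or Ir followed by a number and a lower-case letter. This gave 185 of the 17606 genes in the count table, of which 59 were Or genes, 60 Gr genes and 66 Ir genes. The samples were brains of wandering third-instar larvae raised at 25 °C, with 3 polyA-selected libraries for each sex of 6 genotypes, 36 libraries in all. The question put to these genes was which of them gain reads when the histone H3 residue methylated by the enzyme Set2 is changed, or Set2 itself is mutated.

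The genotypes form 3 pairs of a mutant and its control, which the series describes as having a similar genetic background. The control of H3.3WTH3.2K36R is H3.3WTH3.2HWT; both carry the H3.3WT label, and they differ in that of H3.2. The control of H3.3K36RH3.2HWT is H3.3CtrlH3.2HWT; both carry H3.2HWT, and they differ in the label of H3.3. The control of Set21 is yw, the laboratory strain named for its yellow and white marker mutations. K36R stands for lysine changed to arginine. The labels give no ages in hours, no transgene insertion sites and no statement of whether the 3 libraries of a group came from separate dissections, so that p-values measure the spread between these libraries, which may be technical in part.

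As background, Or proteins form odorant-gated channels together with the shared co-receptor Orco, Gr proteins detect sugars, bitter compounds and carbon dioxide, and Ir proteins are variant ionotropic glutamate receptors that work with the broadly used co-receptors Ir25a, Ir8a and Ir76b. Most sensory neurons choose one receptor or very few, and their cell bodies lie in the sense organs of the head and body, outside the brain. A few receptors are also known inside the fly brain, such as the fructose sensor Gr43a. Set2 trimethylates lysine 36 of H3 along transcribed genes, and H3.3 is the variant form of H3 that is deposited independently of DNA replication.

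Between 82.5 M and 143.8 M reads per library were counted in genes, with a median of 103.0 M reads. Set2 lay between 180.7 and 200.3 CPM (reads per M reads of the library, after TMM scaling) in the 6 yw libraries and between 27.8 and 33.3 CPM in the 6 Set21 libraries. His3.3A, a gene for H3.3, lay between 60.2 and 73.0 CPM in the libraries of both H3.3K36RH3.2HWT and H3.3CtrlH3.2HWT and at 238.9 CPM or more in all others. The K36R changes themselves cannot be read from gene counts. Summed markers of brain neurons stood at 2699 to 3520 CPM in every library. A list of 6 genes of the peripheral chemosensory organs, which includes Orco and the receptor genes Ir25a and Ir8a, summed to 0.965 to 2.68 CPM. None of its genes was at 0 in every library. Marker lists of other tissues also had reads, with antennal disc at 688 to 1383 CPM, eye disc at 107 to 172, fat body at 3.24 to 417 and ring gland at 31.8 to 195. Of the 6 eye disc markers, 1 to 4 were called lower in each mutant comparison and 0 higher. The part of such tissues in the receptor results was not tested. H3.3WTH3.2K36R female 1 and male 1 stood apart by the number of genes with a read, and results that rest on them are given with and without them.

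Most receptor genes were silent or nearly so. No read was counted in any library for 11 of the 185. Of these, Gr10a, Or10a, Gr64b, Gr64c and Gr64e share exon bases with another receptor gene on the same strand, where a read that falls in both genes may be left uncounted, so their 0 does not show that they were silent. In all, 37 had fewer than 10 reads over all 36 libraries together. The mean of every group lay under 0.1 CPM for 135 genes, and 25 genes reached 0.1 CPM in every group. Only Or43b, Ir62a and Ir51a reached 1 CPM in the mean of every group. The edgeR quasi-likelihood test was run on the 57 receptor genes that passed the filter on low counts, 23 Or, 17 Gr and 17 Ir genes, so that 128 were left untested. A gene that passed through its reads in 1 group or genotype alone could pass because it differed there. Counts among the 57 thus do not describe all 185, and the p-value of such a gene carries that selection.

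A few genes carried most of the receptor reads. The 8 most abundant held 72.7% of the summed receptor CPM over all libraries. Or43b, an antennal odorant receptor of the adult, led with a mean of 9.69 CPM, or 6.86 CPM per kb of exon. It shares exon bases with Cul1 on the opposite strand, which averaged 366 CPM, and since the use of strand in the counting is not stated, reads of Cul1 may be part of the Or43b level. Ir76a, an antennal receptor for amines in the adult, averaged 9.31 CPM, or 4.42 CPM per kb, and Ir62a averaged 5.67 CPM, or 3.11 CPM per kb. Ir51a, which the annotation lists as a pseudogene, averaged 2.63 CPM, or 1.56 CPM per kb. Or43b did not pass the test in any of the 6 mutant comparisons, and its group means ran from 8.87 to 10.6 CPM.

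**Figure D1:**
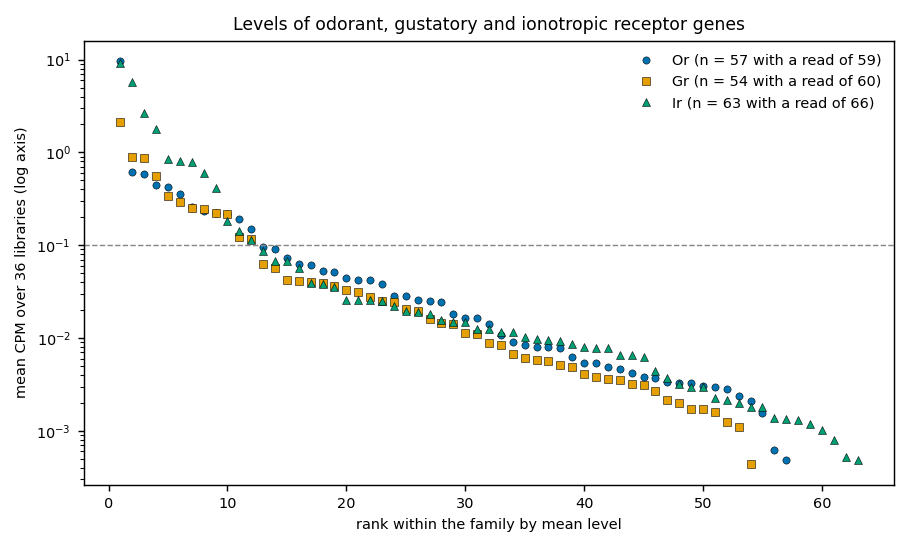
Mean level of each receptor gene over the 36 libraries (CPM, log axis) against its rank within the Or, Gr or Ir family; genes without a read are left out and the dashed line marks 0.1 CPM. A handful of genes reach 1 CPM, led by Or43b at 9.69 CPM, and most lie under the dashed line.

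In the brains with H3.2 K36R, receptor genes called higher outnumbered those called lower. In males 8 of the 57 tested were called higher (14%) and 2 lower (3.51%), against 12.3% and 13.1% of all 12167 genes tested. In females 11 were higher (19.3%) and 1 was lower (1.75%), against 11.1% and 13.7% of all genes. The male share called higher was thus near that of all genes. Outside the H3.2 K36R libraries Or65a had no more than 10 reads in a library and Gr94a no more than 8. Or23a, called in females, had no more than 13 there. These genes passed the filter on low counts through their mutant reads, so the filter may account for part of the excess of higher over lower calls. The median log2 fold change of the tested receptor genes was 0.13 in males and 0.30 in females, while that of all genes was 0.00 in both sexes. Genes higher in both sexes were Ir40a, Or65a, Or63a, Or1a, Ir41a and Gr5a, and the gene lower in both was Gr32a. When only the compared libraries were fitted, the counts were 3 higher and 1 lower in males and 5 higher and 0 lower in females. Without the male library 1 that stood apart, 6 were higher and 1 lower, and without the corresponding female library, 6 were higher and 1 lower. The shares of all genes called in these settings are not given here. A change in these counts is thus no measure of the receptor genes as a set.

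Ir40a, which serves the sensing of dry air in the adult antenna, changed most firmly. Its 3 mutant male libraries held 2.65, 2.66 and 3.31 CPM, and the control males held 0.484, 0.842 and 0.451 CPM. In females the mutant libraries held 3.85, 2.74 and 3.09 CPM, and the controls 0.797, 0.779 and 0.801 CPM. In both sexes every mutant library lay above every control library. The log2 fold change was 2.26 (SE 0.24, edgeR adjusted p = 2.75e-08) in males and 2.03 (SE 0.24, edgeR adjusted p = 1.88e-07) in females.

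Or65a, known in adult males as one of the receptors linked to the pheromone cis-vaccenyl acetate, went from near silence to a low level. The mutant males held 0.345, 0.401 and 0.335 CPM, and the control males 0.0581, 0 and 0 CPM. The mutant females held 0.484, 0.469 and 0.314 CPM, and the controls 0.00972, 0.0973 and 0.0103 CPM. The libraries did not overlap in either sex, and the log2 fold change was 4.21 (SE 1.07, edgeR adjusted p = 0.00393) in males and 3.38 (SE 0.97, edgeR adjusted p = 0.0111) in females. The female adjusted p rose to 0.0574 without control female 1. Or65a passed the filter on low counts through its reads with H3.2 K36R, so its p-values carry that selection. In the other 2 genotype pairs Or65a stayed under 0.08 CPM in each library, and the mutant groups with H3.2 K36R lay above the means of all other genotypes.

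Or63a and Or1a, both odorant receptors of the larval olfactory organ, moved less. Or63a averaged 0.336 ± 0.036 CPM (SD, n = 3) in mutant males and 0.149 ± 0.063 in control males, and 0.427 ± 0.11 and 0.166 ± 0.075 in females. Or1a averaged 0.315 ± 0.095 CPM in mutant males and 0.118 ± 0.066 in controls, and 0.441 ± 0.061 and 0.157 ± 0.071 in females. Both genes were called in both sexes. The largest of these 4 adjusted p-values by edgeR was 0.0419 for Or63a in males, and each of the 4 calls was lost without at least 1 of the libraries.

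Gr94a, a gustatory receptor whose ligand is not given here, was the clearest case of a silent gene with new reads in the males. The 3 mutant male libraries held 0.214, 0.2 and 0.223 CPM, while the controls held 0, 0 and 0.0215 CPM. The control group held 2 reads and the mutant group 60, a ratio of 36.9 with an exact 95% interval of 9.78 to 312 that covers counting error only. In mutant females the libraries held 0.112, 0.0426 and 0.0831 CPM against 0.0194, 0.0195 and 0, which did not overlap but missed the threshold (log2 fold change 2.50, SE 0.96, edgeR adjusted p = 0.0594). Gr94a lies within the span of p53 on the opposite strand, and p53 was also higher in these males, at 14.3 against 9.0 CPM. The neighbouring asRNA:CR46089, on the strand of Gr94a, stood at 0.592 against 0.0563 CPM.

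Of the antennal ionotropic receptors, Ir41a, which responds to polyamines in the adult, was 0.862 ± 0.13 CPM in mutant males and 0.497 ± 0.053 in controls, and 1.06 ± 0.18 against 0.608 ± 0.17 in females. The log2 fold changes of 0.79 and 0.80 were called by edgeR at adjusted p of 0.0168 and 0.0153. In males the control mean of Ir41a lay below the means of the other genotypes, 0.581 to 1.21 CPM, and the mutant mean within them. Gr5a, a receptor for the sugar trehalose, was higher by 0.51 on the log2 scale in each sex. Its female mutant libraries held 1.28, 1.32 and 1.28 CPM against 1.00, 1.01 and 0.708, without overlap, and neither of its calls held in a fit of the compared libraries alone (edgeR adjusted p of 0.0414 in males and 0.0368 in females in the fit of all libraries).

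Gr32a, a receptor that detects bitter compounds and inhibits male courtship of other males, fell. Mutant males held 0.373, 0.389 and 0.313 CPM, and control males 1.12, 1.15 and 1.10 CPM. The log2 fold change was -1.65 (SE 0.23, edgeR adjusted p = 2.46e-06) in males and -0.92 (SE 0.22, edgeR adjusted p = 0.00267) in females, where the adjusted p was 0.0911 when only the compared libraries were fitted. The remaining calls, completed here after their values were seen, were Gr64f higher (with the control mean of 0.140 CPM below all other genotypes) and Ir7f lower in males, and Ir31a, Ir68a, Ir76a, Or23a and Or69a higher in females. Or69a averaged 0.196 ± 0.027 CPM in the mutant females and 0.0338 ± 0.043 in the controls. Or23a passed the filter on low counts through its reads with H3.2 K36R, so its p-value carries that selection.

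**Figure D2:**
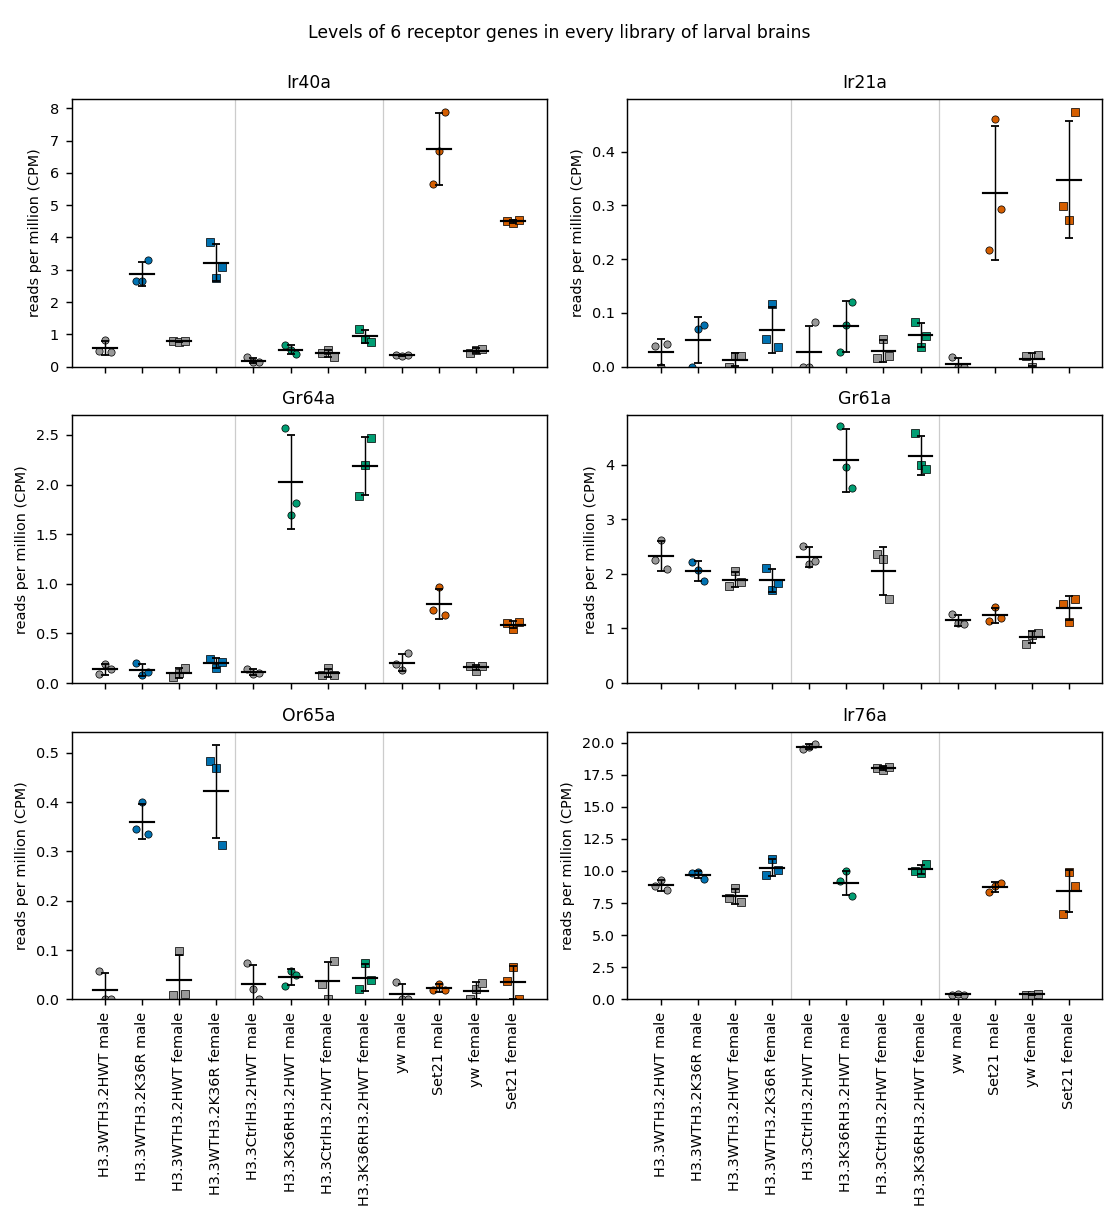
Levels of 6 receptor genes in each of the 36 libraries (CPM, linear axes), by genotype and sex, with circles for males, squares for females, grey for controls, and horizontal lines with bars for the mean and SD of 3 libraries. Ir40a is higher in the mutant of each pair, Gr64a and Gr61a are highest with H3.3 K36R, Or65a with H3.2 K36R and Ir21a in Set21, and for Ir76a the controls yw and H3.3CtrlH3.2HWT stand apart from the other groups.

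With H3.3 K36R the called receptor gene with the largest fold change was the sugar receptor Gr64a, in both sexes. In males 6 of the 57 tested receptor genes were called higher (10.5%) and 2 lower (3.51%), against 5.89% and 4.08% of all genes tested. In females 5 were higher (8.77%) and 1 lower (1.75%), against 3.44% and 2.90% of all genes. Called higher in both sexes were Gr64a, Gr61a, Gr64f, Ir31a and Ir40a, with Gr5a in males, and Ir76a was lower in both sexes with Or71a in males. The median log2 fold change of the tested receptor genes was 0.05 in males and 0.12 in females.

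Gr64a, a receptor for sugars such as sucrose and maltose, rose from a low level. The mutant males held 2.57, 1.69 and 1.82 CPM, and the control males 0.147, 0.0921 and 0.103 CPM. The mutant females held 1.88, 2.20 and 2.47 CPM, and the control females 0.0861, 0.148 and 0.0782 CPM. Each mutant library was above each library of the other 10 groups. The log2 fold change was 4.15 (SE 0.36, edgeR adjusted p = 1.55e-09) in males and 4.37 (SE 0.36, edgeR adjusted p = 5.52e-10) in females.

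Gr61a, a glucose receptor, started from a higher level. Its mutant males held 4.71, 3.96 and 3.57 CPM against 2.52, 2.18 and 2.23 CPM, and its mutant females 4.57, 4.0 and 3.92 CPM against 2.36, 2.27 and 1.54 CPM. The libraries did not overlap, and the log2 fold change was 0.82 in males (SE 0.15, edgeR adjusted p = 0.000347) and 1.02 in females (SE 0.15, edgeR adjusted p = 2.21e-05). Cep290, the next gene downstream on the same strand, was also higher, at 18 against 11.9 CPM in males and 17.7 against 10.8 CPM in females. Gr64f, the co-receptor that most sugar receptors need, held 1.03, 0.462 and 0.504 CPM in mutant males against 0.293, 0.256 and 0.196, and 0.597, 0.882 and 0.818 CPM in mutant females against 0.204, 0.105 and 0.215. Its log2 fold change was 1.42 in males and 2.13 in females, and the male adjusted p by edgeR went from 0.00287 to 0.0623 without mutant male 1.

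The 9 sugar receptors together summed to 8.70 ± 0.17 CPM in the females with H3.3 K36R and 3.43 ± 0.31 in their controls, and to 7.58 ± 1.4 and 3.18 ± 0.29 CPM in males. The sum lay between 2.34 and 3.76 CPM in the means of the other 8 groups. Of the 5 sugar receptors tested, 4 were higher in males and 3 in females, and Gr43a was not called in any of the 6 comparisons. Roles were assigned to the receptors after values had been seen.

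Ir40a rose here as well, from lower levels. Mutant males held 0.679, 0.520 and 0.403 CPM against 0.293, 0.133 and 0.145, and mutant females 1.17, 0.873 and 0.770 CPM against 0.423, 0.523 and 0.313. The log2 fold change was 1.51 in males (edgeR adjusted p = 0.00035) and 1.15 in females (edgeR adjusted p = 0.0023). In males it was the control mean of 0.190 CPM that lay outside the means of the 8 groups of the other genotypes, 0.349 to 6.74 CPM, and the mutant mean of 0.534 CPM lay within them. The same held for Gr5a in males, at 0.694 CPM in the mutant and 0.434 in the control against 0.509 to 1.29 CPM elsewhere. Ir31a, an antennal receptor that responds to organic acids in the adult, averaged 0.480 ± 0.046 CPM in mutant males against 0.277 ± 0.031, and 0.560 ± 0.051 CPM in mutant females against 0.232 ± 0.045.

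Ir76a was lower in this mutant, and here the control group was the one outside the range of the others. Mutant males held 9.2, 9.97 and 8.07 CPM, which lay among the levels of the other groups, and control males held 19.5, 19.6 and 19.9 CPM. The log2 fold change was -1.12 (SE 0.09, edgeR adjusted p = 4.39e-10) in males and -0.83 (SE 0.09, edgeR adjusted p = 1.6e-07) in females. Or71a, an odorant receptor of the adult maxillary palp, averaged 0.408 ± 0.17 CPM in mutant males and 1.11 ± 0.19 in controls (log2 fold change -1.44, SE 0.39, edgeR adjusted p = 0.0157). The male control mean of Or71a lay above those of the other genotypes, 0.142 to 0.564 CPM, and the mutant mean within them. In females Or71a averaged 0.478 ± 0.047 against 1.04 ± 0.13 CPM, without overlap, and missed the threshold (edgeR adjusted p = 0.0884).

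In the Set21 brains Ir40a, Ir21a and Ir93a, which serve the sensing of temperature and humidity, were called higher in both sexes. Ir68a, the other of the 4 genes given that role after values had been seen, was called higher in females and did not pass the test in males. Among all 57 tested receptor genes, 15 were higher in males (26.3%) and 5 lower (8.77%), against 22.9% and 22% of all genes tested. In females 14 were higher (24.6%) and 6 lower (10.5%), against 20.9% and 21.5%. The share of receptor genes called higher was thus near that of all genes, and the share called lower was smaller. Ir21a, Or98a and Gr2a passed the filter on low counts through their Set21 reads, and Or49b through its yw reads. These shares carry that selection. The median log2 fold change of the tested receptor genes was 0.55 in males and 0.39 in females, beside 0.02 and 0.01 for all genes.

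Ir40a reached its highest levels here. Set21 males held 5.66, 6.66 and 7.90 CPM and yw males 0.363, 0.322 and 0.361 CPM. Set21 females held 4.52, 4.44 and 4.53 CPM and yw females 0.432, 0.506 and 0.562 CPM. All 6 Set21 libraries were above all 30 other libraries. The log2 fold change was 4.27 (edgeR adjusted p = 1.53e-13) in males and 3.17 (edgeR adjusted p = 3.62e-11) in females.

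Ir21a, part of the receptor for cooling in the larval dorsal organ, was close to silent in yw. Set21 males held 0.217, 0.460 and 0.292 CPM and yw males 0.0173, 0 and 0 CPM. Set21 females held 0.298, 0.273 and 0.473 CPM and yw females 0.0201, 0 and 0.0221 CPM. The libraries did not overlap in either sex, and edgeR gave adjusted p of 0.000259 in males and 0.000839 in females. Outside Set21, Ir21a had no more than 12 reads in a library. It passed the filter on low counts through its Set21 reads, so these p-values carry that selection. In males the ratio of 98 to 2 reads was 54.4, with an exact 95% interval of 14.7 to 456 for counting error only. Ir21a shares exon bases with asRNA:CR43609 on the opposite strand, which was lower in Set21 males, at 0.377 against 0.665 CPM. Cda5, upstream on the same strand as Ir21a, was higher, at 41.0 against 22.2 CPM in males.

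Ir93a, which Ir40a and Ir21a need as a partner, was higher by 1.64 on the log2 scale in males (SE 0.22, edgeR adjusted p = 4.34e-07) and by 1.69 in females (SE 0.22, edgeR adjusted p = 3.5e-07). Its Set21 males held 1.24, 1.10 and 1.73 CPM against 0.389, 0.350 and 0.561 in yw. Ir68a, needed to sense moist air, averaged 1.09 ± 0.23 CPM in Set21 females and 0.614 ± 0.14 in yw females (log2 fold change 0.83, edgeR adjusted p = 0.00139). In males Ir68a averaged 0.996 ± 0.25 against 0.735 ± 0.15 CPM, with overlapping libraries and an adjusted p of 0.0758 by edgeR. The 4 genes summed to 9.41 ± 1.5 CPM in Set21 males and 1.52 ± 0.26 in yw males, and to 7.47 ± 0.55 and 1.60 ± 0.21 CPM in females. Ir40a made up much of the Set21 sums, with means of 6.74 CPM (males) and 4.50 CPM (females). Its yw means were 0.349 and 0.500 CPM, in the same order of sexes. The sums are therefore no measure of the other genes on this list.

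Ir25a, the co-receptor with which these genes work, did not pass the test in any of the 6 comparisons. It averaged 0.506 ± 0.034 CPM in Set21 males and 0.569 ± 0.036 in yw males, and 0.654 ± 0.12 and 0.670 ± 0.17 CPM in females. Ir8a, the co-receptor of acid-sensing receptors, was too low to be tested. Ir76b, a further co-receptor, averaged 0.0196 ± 0.0012 CPM in Set21 males against 0.118 ± 0.024 in yw (log2 fold change -2.52, SE 0.98, edgeR adjusted p = 0.0365), and this call was lost in 6 of 11 alternatives.

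Ir31a was higher by 2.12 on the log2 scale in Set21 males and by 2.06 in females. The Set21 males held 0.746, 0.763 and 1.01 CPM against 0.190, 0.166 and 0.220, and the females 0.933, 1.13 and 0.912 CPM against 0.181, 0.330 and 0.199. Gr64a also rose, by 1.95 in males and 1.90 in females, to 0.799 ± 0.15 and 0.588 ± 0.037 CPM. Ir62a, whose function is not stated here, held 7.05, 7.59 and 7.16 CPM in Set21 males against 5.24, 4.71 and 5.28 in yw, and Iml1, the gene that contains it on the same strand, was higher too, at 99.2 against 80.5 CPM.

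Among the odorant receptors, Or98a went from near silence to a low level in Set21. The Set21 males held 0.132, 0.115 and 0.226 CPM and the yw males 0, 0 and 0.0200 CPM, while the Set21 females held 0.0839, 0.149 and 0.232 CPM and the yw females had no read. In females the level was at least 4.94-fold higher, taking 3 reads in each library as the lowest level that yw could show, and in males the ratio of 49 to 2 reads was 27.2, with an exact 95% interval of 7.14 to 231. Outside Set21, Or98a had no more than 2 reads in a library. edgeR gave adjusted p of 0.0035 in males and 0.00123 in females, whereas DESeq2 gave 0.381 and 0.218. Or98a passed the filter on low counts only through its Set21 reads, so these p-values carry that selection.

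Or1a, Or67c and Or71a were called higher in both sexes. Or1a held 0.578, 0.760 and 0.447 CPM in Set21 females against 0.101, 0.330 and 0.132 in yw. CG12470, upstream of Or1a on the same strand, was higher with it, at 0.861 against 0.376 CPM in Set21 females and 0.786 against 0.398 CPM in females with H3.2 K36R. Or67c, an antennal receptor of the adult, averaged 0.246 ± 0.026 CPM in Set21 females and 0.0837 ± 0.0040 in yw. Or71a averaged 0.564 ± 0.16 CPM in Set21 males and 0.147 ± 0.058 in yw.

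For several of the Set21 calls yw lay outside the range of the other genotypes and Set21 within it. These were Ir76a, Gr32a, Ir51a and Or49b in both sexes, Ir76b in males, and Gr39a, Ir62a and Or67c in females. Ir76a held 8.36, 8.87 and 9.07 CPM in Set21 males and 0.346, 0.442 and 0.361 in yw males, a log2 fold change of 4.51 (SE 0.12, edgeR adjusted p = 3.96e-22), with 4.46 in females. The Set21 means of 8.76 and 8.45 CPM lay within the range of the means of the other genotypes, and the 2 yw means of 0.383 and 0.384 CPM did not. CG14102, which shares exon bases with Ir76a on the opposite strand, stood at 5.80 CPM in both Set21 and yw males.

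For Or49b, a larval odorant receptor, yw was again the group outside the range of the other genotypes, but above it. The yw males held 0.657, 0.645 and 0.761 CPM and the Set21 males 0.00944, 0 and 0.0566 CPM, a log2 fold change of -4.86 (SE 0.86, edgeR adjusted p = 3.45e-05), with -4.16 in females. In the other 4 genotypes its mean stayed at 0.0559 CPM or lower. No library outside yw had more than 8 reads of Or49b. It passed the filter on low counts through its yw reads, so its p-values carry that selection. Cyp9h1, next to Or49b on the opposite strand, was lower with it, at 0.634 against 3.46 CPM in males. Ir51a averaged 4.62 ± 0.28 CPM in yw males and 2.34 ± 0.21 in Set21 males, and every group other than yw averaged between 2.03 and 2.48 CPM. In log2 terms Gr32a fell by 1.73 in males and by 1.78 in females, from 1.93 ± 0.41 and 1.55 ± 0.21 CPM in yw.

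The calls not yet named in Set21, listed after their values were seen, were Gr2a, Gr5a, Gr94a and Ir56d higher in males and Gr39a and Gr61a higher in females. Lower were Or69a in both sexes, and Gr64f and Or22c in females. Gr94a held 0.0283, 0.0837 and 0.0566 CPM in Set21 males and no read in yw males, at least 2.02-fold higher, taking 3 reads in each yw library as before. Gr2a passed the filter on low counts through its Set21 reads, so its p-value carries that selection. It also shares exon bases on the same strand with futsch, which was counted at 684 CPM in Set21 males and 804 in yw males.

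**Figure D3:**
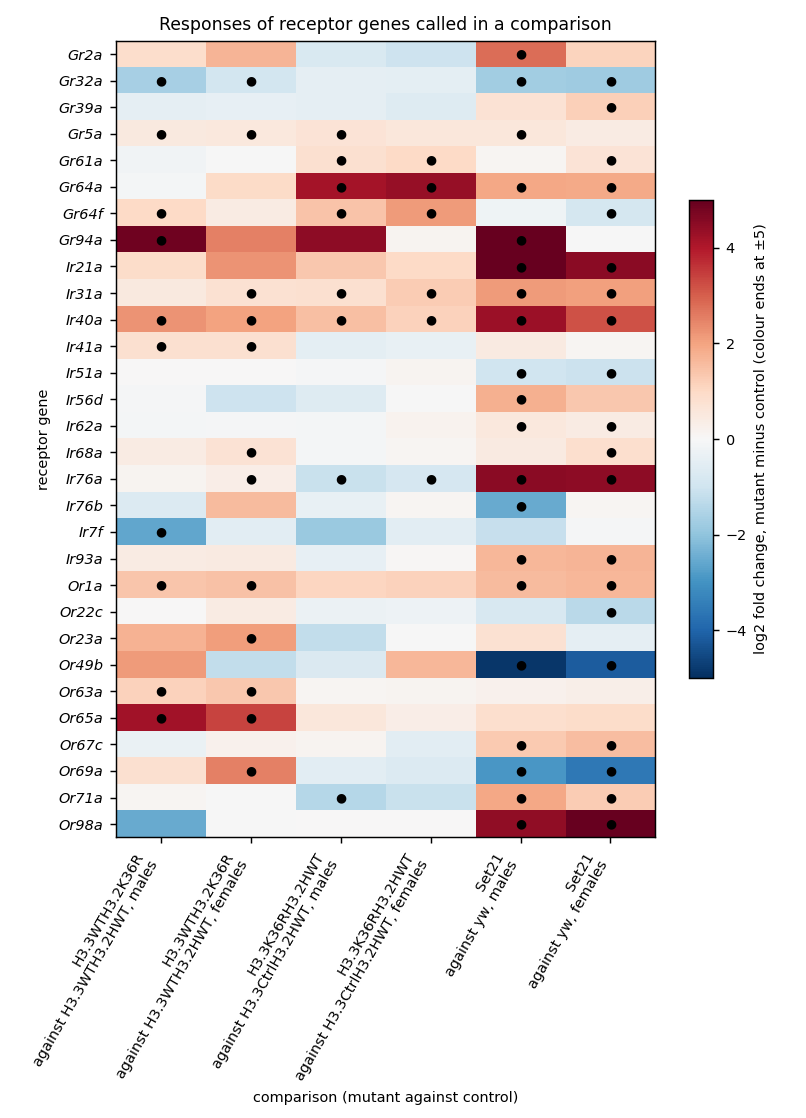
Log2 fold changes (mutant minus control, colour scale ending at ±5) of the 30 receptor genes called in at least 1 of the 6 comparisons; dots mark calls at an edgeR adjusted p under 0.05. Ir40a carries a dot in all 6 columns, and colours of genes without reads in 1 group, such as Gr94a and Or98a, depend on the fit and are no measure of size.

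Over the 6 comparisons 30 of the 57 tested receptor genes were called at least once and 27 never. In Set21 alone, 44.9% of all genes tested were called in males and 42.4% in females. The share of all genes called at least once, or in all 6 comparisons, is not given here. Ir40a was the one receptor gene called higher in both sexes of all 3 mutants, and Gr5a and Ir31a were called higher in at least 1 sex of each. No gene was called in opposite directions in the 2 sexes of a mutant. CG3635, downstream of Ir40a on the opposite strand, was higher alongside it in 5 of the 6 comparisons, at 0.662 against 0.0237 CPM in males with H3.2 K36R, and in the females with H3.3 K36R it stood at 0.0164 against 0.0513 CPM and was not called.

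The gain of reads was also counted without a test, as at least 0.1 CPM in each mutant library and under 0.05 CPM in each control library. With H3.2 K36R, Gr94a met this in males, 1 of 122 receptor genes silent in the control, where 1.86% of all such silent genes did. No receptor gene met it in the corresponding females, where 1.61% of all 5338 silent genes did. With H3.3 K36R none met it in either sex, where 0.273% of silent genes did in males and 0.250% in females. In Set21, Ir21a and Or98a met it in males, 2 of 126, and Ir21a in females, 1 of 132, where 1.40% and 1.23% of all silent genes did. The converse loss of reads was met by no receptor gene in any of the 6 comparisons. Of all 17606 genes, 0.00568% met it in males and 0.0170% in females with H3.2 K36R. With H3.3 K36R 0.0170% and 0.0341% did, and in Set21 0.0625% and 0.0909%, in the same order of sexes. These loss shares are of all genes and the gain shares of silent genes only, so the 2 are not on the same base.

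With the looser filter of at least 10 reads over all libraries, 91 of the 128 untested genes could be tested. Of these, 4 were called, all higher and all with no read in the 3 control libraries. The share called among all 15269 genes tested with this filter is not given here, so the 4 calls are no measure of the receptor genes as a set. Ir94e held 0.0746, 0.0661 and 0.120 CPM in Set21 females (edgeR adjusted p = 0.0277), and Or56a 0.0189, 0.105 and 0.0189 CPM in Set21 males (edgeR adjusted p = 0.00733). In females with H3.2 K36R, Gr23a held 0.104, 0.107 and 0.00923 CPM (edgeR adjusted p = 0.0439) and Ir64a 0.0692, 0 and 0.0185 CPM (edgeR adjusted p = 0.0499). These values rest on 1 to 14 reads in a library with any, and for Ir64a 1 mutant library also had none. They were named after their values were seen.

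The number of receptor genes with at least 1 read was compared at equal depth, by the mean number left by thinning each library to 82.5 M reads, a comparison added after seeing the data. With H3.2 K36R, 100.1 to 106.8 of the 185 had a read in female libraries and 77.6 to 85.4 in the controls, and 91.9 to 101.6 in males against 77.7 to 90.1. In Set21 the numbers were 95.3 to 103.3 in females against 81.4 to 85.5 in yw, and 91.4 to 102.1 in males against 79.9 to 85.3. With H3.3 K36R the male libraries gave 90.6 to 97.8 against 78.0 to 84.8, and the female libraries gave 88.1 to 99.1 against 86.1 to 90.2, which overlap.

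In those 5 comparisons without overlap each mutant library lay above each control library. The same held over all genes in all 6 comparisons, for example 13446 to 13527 genes with a read in Set21 females and 12674 to 12869 in yw females. The libraries H3.3WTH3.2K36R female 1 and male 1 had 14189 and 14265 genes with a read and the highest summed salivary gland markers, at 41.2 and 31.9 CPM. Without them, the remaining 2 libraries of each sex still lay above the controls for receptor genes. The 6 peripheral chemosensory organ markers summed to 1.80 to 2.27 CPM in Set21 females and 0.965 to 1.30 in yw females, and to 1.87 to 2.14 and 1.14 to 1.38 CPM in males. With H3.3 K36R they summed to 1.86 to 2.44 CPM in females against 1.34 to 1.58, and to 1.99 to 2.51 in males against 1.48 to 1.93. With H3.2 K36R they summed to 2.20 to 2.68 CPM in males against 1.49 to 1.92, and to 1.86 to 1.98 in females against 1.63 to 2.03. The mutant sums thus lay above those of the controls in 5 of the 6 comparisons, and overlapped them in the females with H3.2 K36R. Only 3 of the 6 markers could be tested, and no more than 1 was called in any comparison. Orco carried much of the sum. In Set21 females the sum averaged 2.08 CPM against 1.14, and Orco alone 1.30 against 0.392. In males with H3.2 K36R the sum averaged 2.37 CPM against 1.75, and Orco 1.60 against 0.860. The sums therefore do not show that the 6 markers rose together. Of the 6 markers, lush had no read in either sex of yw or in the H3.3WTH3.2HWT males. The part of cells of the chemosensory organs in the receptor results was not tested. In these bulk samples more cells of a type and more RNA per cell cannot be told apart.

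**Figure D4:**
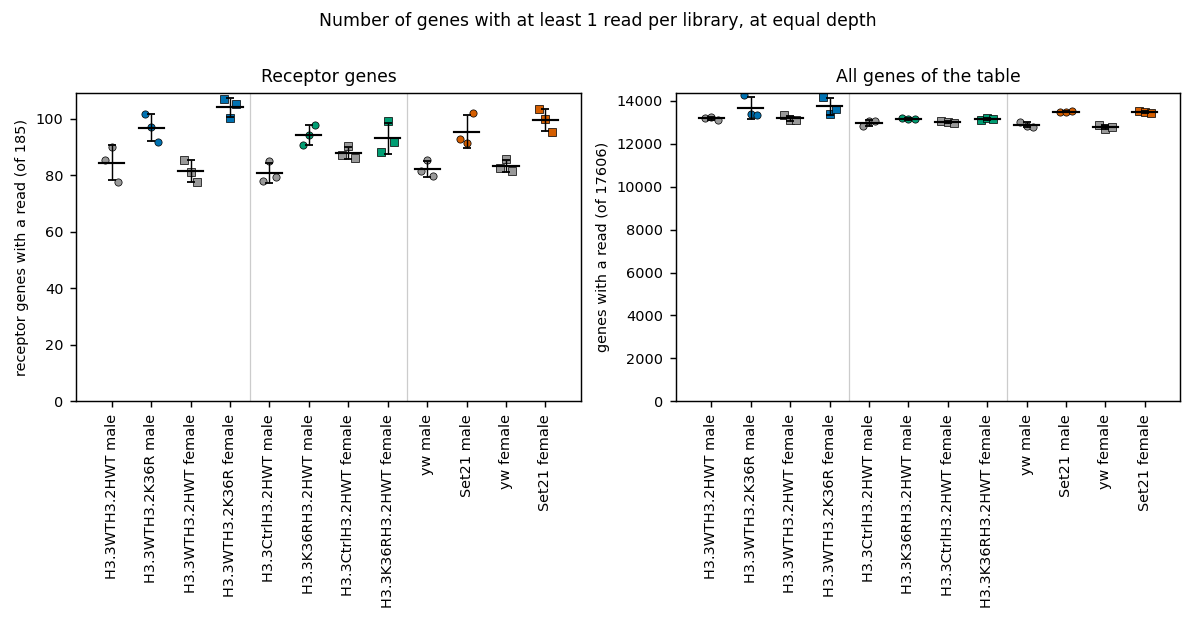
Number of receptor genes (left, of 185) and of all genes (right, of 17606) with at least 1 read in each library, as the mean number left by thinning to 82.5 M reads; circles are males, squares are females, grey marks controls, and lines with bars give the mean and SD of 3 libraries. Female libraries with H3.2 K36R reach 100.1 to 106.8 receptor genes and their controls 77.6 to 85.4.

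The summed level of all 185 genes moved little beside these single genes. It averaged 45.1 CPM in males with H3.2 K36R and 41.2 in their controls, and 47.4 against 40.0 in females, log2 ratios of 0.13 and 0.24. With H3.3 K36R it was 45.7 against 53.5 CPM in males and 50.1 against 51.6 in females, log2 ratios of -0.23 and -0.04. Without Ir76a, an alternative added after seeing the data, those ratios became 0.11 and 0.25. Set21 averaged 53.8 CPM in males and 48.9 in females, against 34.4 and 33.2 in yw, log2 ratios of 0.65 and 0.56 that became 0.41 and 0.30 without Ir76a.

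The mutants differed from each other in their effect on named genes. The response to H3.2 K36R, averaged over the sexes, differed from the response to Set21 for 20 of the 57 receptor genes (41.4% of all genes tested were called), from the response to H3.3 K36R for 16 (28.7%), and the response to Set21 differed from that to H3.3 K36R for 20 (42.6%). These shares are 35.1%, 28.1% and 35.1% of the 57, each below or close to that of all genes. The response of Gr64a to H3.2 K36R minus that to H3.3 K36R was -3.82 on the log2 scale (SE 0.36, edgeR adjusted p = 3.33e-09), and the response to Set21 minus that to H3.3 K36R was -2.34 (SE 0.34, edgeR adjusted p = 2.51e-06), so Gr64a responded most to H3.3 K36R. Ir40a responded more to Set21 than to H3.3 K36R by 2.39 (SE 0.25, edgeR adjusted p = 1.14e-08), and its response to H3.2 K36R minus that to Set21 was -1.57 (SE 0.24, edgeR adjusted p = 3.72e-06).

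The response to H3.2 K36R minus that to Set21 was -1.25 for Ir93a (edgeR adjusted p = 2.58e-05) and -1.48 for Ir31a (edgeR adjusted p = 1.27e-05), both larger in Set21. Or65a responded more to H3.2 K36R than to H3.3 K36R by 3.35 (SE 1.10, edgeR adjusted p = 0.0228), and its difference from the Set21 response did not pass the test. Ir76a differed between all 3 responses, by as much as 5.46 between Set21 and H3.3 K36R, with the arrangement of control levels given above.

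No receptor gene passed the edgeR test for a difference of response between males and females, with 0.0658% of all genes called for H3.2 K36R, 0.181% for H3.3 K36R and 3.43% for Set21. At an unadjusted p under 0.05 there were 2, 1 and 4 receptor genes, and DESeq2 called 1 for Set21, as did the fit of the compared libraries alone. The shares of all genes beside these counts are not given here, so the counts are no measure of the receptor genes as a set. The smallest p was that of Ir40a in Set21, whose response was 1.10 larger on the log2 scale in males (SE 0.34, edgeR adjusted p = 0.0752).

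Outside the receptor families, Orco, the co-receptor of all Or proteins, was higher in 5 of the 6 comparisons. In Set21 females it averaged 1.30 ± 0.16 CPM against 0.392 ± 0.061 in yw (log2 fold change 1.72, SE 0.18, edgeR adjusted p = 5.86e-09), and in males 1.39 ± 0.11 against 0.625 ± 0.092. With H3.2 K36R it averaged 1.60 ± 0.26 CPM in males against 0.860 ± 0.10, and 1.19 ± 0.010 in females against 0.850 ± 0.099. In the males with H3.3 K36R it averaged 1.53 ± 0.071 against 1.11 ± 0.23 CPM and was not called.

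A list of 46 other chemosensory and sensory genes (odorant-binding proteins, sensory channels and regulators of sensory neurons) gave 39 tested. With H3.2 K36R 3 were higher (7.69%) and 11 lower (28.2%) in males, against 12.3% and 13.1% of all genes tested, and 4 higher (10.3%) and 12 lower (30.8%) in females, against 11.1% and 13.7%. With H3.3 K36R 2 were higher (5.13%) and 3 lower (7.69%) in males, against 5.89% and 4.08%, and 2 and 2 (5.13% each) in females, against 3.44% and 2.90%. In Set21 6 were higher (15.4%) and 9 lower (23.1%) in males, against 22.9% and 22%, and 6 higher (15.4%) and 10 lower (25.6%) in females, against 20.9% and 21.5%. The list's median log2 fold changes lay between -0.12 and 0.02. In Set21, Obp56a, an odorant-binding protein, rose by 2.88 in males and 2.48 in females on the log2 scale, and iav, a channel of hearing and stretch neurons, by 2.10 and 2.44. With H3.3 K36R, TrpA1, a warmth-activated channel, averaged 5.35 ± 0.40 CPM in males against 29.8 ± 1.2 in controls, and 4.76 ± 0.39 in females against 21.5 ± 10, a fall by 2.48 and by 2.18 on the log2 scale. With H3.2 K36R, dati, a zinc-finger protein of neurons, fell by 1.14 and by 0.86.

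Of the 30 receptor genes called, 7 share exon bases with another annotated gene, namely Gr2a, Or23a, Gr32a, Gr5a, Gr64f, Ir21a and Ir76a. The kit marks strand, but whether the counting used it is not stated, and for these 7 genes reads of the overlapping gene may be included. Levels and changes of these genes are uncertain to that extent.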

How the data were processed

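Brain mRNA of 36 libraries was analysed from raw whole-number counts per gene deposited by the authors, without normalization. Per the labels' protocols, RNA taken up in Trizol was made into libraries with the KAPA stranded mRNA kit. STAR 2.7.2a and Subread 2.0.3 are named per the submitters' processing notes; the genome build, annotation release and strand setting are not stated there or in the labels. Even values made up 79.2% to 85.1% of those from 1 to 4, the pattern left by counting each mate of a pair, so values are called reads. Symbols came from a table of FlyBase gene IDs, in which 79 IDs of the count table had no match, and gene types, neighbours, exon lengths and overlaps from an Ensembl annotation of the BDGP6 assembly matched by gene ID, which may differ from the annotation the authors counted on. No sequence or coordinate is used.

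Counts were filtered with filterByExpr (minimum count 10), scaled by TMM (factors 0.970 to 1.05) and fitted in edgeR 4.0.16 (R 4.3.3, limma 3.58.1) by the quasi-likelihood test with a mean for each of 12 groups (24 residual degrees of freedom), with Benjamini-Hochberg adjustment over 12167 genes. A gene is called at an adjusted p under 0.05. Changes are log2 of mutant over control. The script was tested on simulated data. Intervals on ratios and floors of 3 reads cover counting error only; mates of a pair and PCR copies are not independent molecules, so the intervals are too narrow.

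Alternatives were DESeq2 1.42.0 (test and size factors), a looser filter, a fit of the compared libraries alone, a replicate block and leaving out each library. Members and lists were chosen with earlier results of these data known. Named genes are up to 6 per direction with the smallest p in a comparison; others are marked. Same-numbered libraries deviated together (every r over 0.1) in 1 comparison, the females with H3.2 K36R (r of 0.105 to 0.340). This pairing was weak, since mutant female 2 had an r of 0.120 with control female 3 and 0.105 with control female 2. Libraries of a group differed by more than sampling noise (chi-square per degree of freedom 8.19 to 96.1), so none was merged.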

Additional observations from a re-analysis of the deposited data

How the results depend on the processing

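Of the 76 calls of receptor genes in the 6 comparisons, 41 were kept in every alternative and 35 were lost in at least 1: 31 without 1 library, 20 when only the compared libraries were fitted, 8 with the looser filter, 2 with DESeq2 (Or98a in both sexes of Set21), and 0 with DESeq2 size factors or the replicate block. None reversed. Kept in every alternative were 4 calls in males and 2 in females with H3.2 K36R, 4 and 5 with H3.3 K36R, and 12 and 14 in Set21. The replicate block left 11 higher and 1 lower in the females with H3.2 K36R, where the numbers pair, and changed no other call. When only the compared libraries were fitted, the counts of higher and lower genes with H3.2 K36R were 3 and 1 in males and 5 and 0 in females, 2 genes were lower in the females with H3.3 K36R, and 1 differed between the sexes in Set21. The looser filter gave 1 lower in males with H3.2 K36R and 3 lower in Set21 males. DESeq2 gave 2 lower in the females with H3.3 K36R and 1 sex difference in Set21. The cause of these shifts was not tested. The shares of all genes called in the alternatives are not given here, so these counts are no measure of the receptor genes as a set. Leaving out 1 library gave 3 to 7 higher and 1 to 2 lower in males with H3.2 K36R, with 3 higher without control male 3, 4 higher without mutant male 2 or 3, and 1 lower without control male 3 or any 1 of the mutant males. It gave 5 to 9 higher in the females, with 5 without control female 2, 6 without mutant female 1 or 3, and 7 without control female 1. Lower genes ran from 1 to 2 in each sex with H3.3 K36R (1 without control male 2 or mutant male 1, and 2 without mutant female 1) and from 3 to 5 in Set21 males, with 3 without yw male 1 or Set21 male 1. The response difference between H3.2 K36R and H3.3 K36R ran from 10 to 16 genes, with 10 without H3.3K36RH3.2HWT female 2.

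At 0.2 and 0.1 CPM, the gain of reads was met by 2 receptor genes in males and 1 in females with H3.2 K36R, and by 1 and 2 in Set21. At 0.05 and 0.025 CPM, it was met by 2 in males with H3.2 K36R and 3 in Set21 females. Without 1 library it ran from 1 to 3 in those males (3 without control male 1), from 0 to 1 in the females (1 without mutant female 1 or 3 or any 1 of the controls) and from 1 to 2 in Set21 females (2 without Set21 female 1). The shares of all silent genes that met it in these settings are not given here. The summed level without Or43b gave log2 ratios of 0.33 in females with H3.2 K36R and of 0.82 and 0.75 in Set21 males and females. Without Ir76a it gave 0.11 and 0.25 in males and females with H3.3 K36R, reversed from -0.23 in the males, and 0.41 and 0.30 in Set21. Of the 128 untested genes, 91 were tested with the looser filter and 4 of them were called, as given above. The other 37 had too few reads for either filter.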
